A study of Mus musculus with 80 samples.

Results

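Insertion alleles are sequencing reads of an edited site that hold bases which the reference does not. Here they were selected on a gap in the deposited reference sequence within the window around 1 of 7 *Ptbp1* sgRNAs, which held for 450 of the 11389 allele entries of 80 samples. These entries stood for 538 of 343154 reads. The gap itself chose the members, so that its presence is no finding, while its place, its length, the origin of the inserted bases and the A-to-G changes on the same reads were not used in the choice.

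The samples are Hepa1-6 cells, a mouse hepatoma line from a C57L mouse, transfected by Lipofectamine with 400 ng of DNA and collected after 5 d. Each received an sgRNA against a splice site of *Ptbp1*, which encodes an RNA-binding repressor of alternative exons, either with an adenine base editor (60 samples in 20 groups) or alone (20 samples in 7 control groups). The editors join the deaminase ABEmax or ABE8e to a nickase of *Sp*Cas, which reads an NGG PAM, or of *Sp*G, a variant with a relaxed PAM. Every group had 3 samples, apart from 2 for the exon 7 donor control, and *Sp*Cas editors were used at 3 sites only (exon 1, exon 7 donor and exon 8). The controls carry the sgRNA without an editor, and every table pools the alleles of all cells of a well.

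A Cas9 nickase opens the DNA at the protospacer and cuts the strand that pairs with the sgRNA, 3 bases from the PAM. The deaminase acts on adenines of the other, displaced strand, mostly in its PAM-distal part, and deaminated adenine is read as guanine. Insertions and deletions are known as rare by-products of base editors.

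In the mouse build GRCm39, *Ptbp1* is annotated on chromosome 10, plus strand, from 79690261 to 79700605. All sequences are written 5′ to 3′ on the strand of the protospacer, and bases are numbered from 1 to 20 in the protospacer, with 0 and negative numbers for the bases before it. The nick falls on the opposite strand between bases 17 and 18. The protospacers are shown because place and copying are counted on them, with the targeted splice-site adenine and the PAM in capitals.
exon 1 donor, chr10:79690542-79690561, minus strand: acttAcccgtccatggcacaCGG
exon 3 acceptor, chr10:79694579-79694598, plus strand: ttctcAgcggggatccgacgAGC
exon 3 donor, chr10:79694644-79694663, minus strand: cttAcctgctgaggcagagcTGC
exon 7 acceptor, chr10:79695608-79695627, plus strand: cccacAgtccctggatggccAGA
exon 7 donor, chr10:79695775-79695794, minus strand: cttAccaaaggctgctgccaTGG
exon 8 donor, chr10:79696014-79696033, minus strand: aatAcctgcggcctgagggaTGG
exon 9 donor, chr10:79696790-79696809, minus strand: acatAcctcagggttcagatTGC
In transcript ENSMUST00000172282.8 each protospacer spans the border of its exon, with 13 to 15 bases in the exon, and every targeted adenine is intronic. At exon 1 the exonic part includes the start codon and bases of the 5′ UTR.

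Most insertion reads repeated a stretch of the protospacer in tandem. The following reads show this, with both copies in capitals after the reference window, in which the protospacer is in capitals.
exon 7 donor, reference: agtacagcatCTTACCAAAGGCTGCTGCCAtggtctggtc
exon 7 donor, bases 7 to 11 repeated: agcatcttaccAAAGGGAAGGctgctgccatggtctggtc
exon 7 donor, bases 4 to 11 repeated: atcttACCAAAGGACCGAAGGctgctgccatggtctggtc
exon 7 donor, bases 9 to 12 repeated: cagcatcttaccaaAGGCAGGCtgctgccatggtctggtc
exon 8 donor, reference: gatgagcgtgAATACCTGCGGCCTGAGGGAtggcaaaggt
exon 8 donor, bases 4 to 13 repeated: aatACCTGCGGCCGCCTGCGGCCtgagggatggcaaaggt
exon 8 donor, bases 4 to 12 repeated: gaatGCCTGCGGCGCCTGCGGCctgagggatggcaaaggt
exon 3 donor, reference: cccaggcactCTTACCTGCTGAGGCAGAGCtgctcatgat
exon 3 donor, bases 1 to 6 repeated: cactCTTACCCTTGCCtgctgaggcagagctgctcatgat
exon 7 acceptor, reference: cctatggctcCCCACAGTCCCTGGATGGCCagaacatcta
exon 7 acceptor, bases 4 to 13 repeated: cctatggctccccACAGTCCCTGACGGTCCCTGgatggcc
In the read with bases 7 to 11 repeated (6 reads in 3 samples), the first copy keeps its adenines and the second carries A7G. The read with bases 1 to 6 repeated at the exon 3 donor (3 reads in 1 sample) has A4G in the second copy only. The read with bases 4 to 12 repeated at exon 8 (3 reads in 2 samples) has A4G in both copies. A change such as A7G is written as the base on the protospacer strand, its position and the base read.

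Insertion reads were rare, and almost all came from samples with an editor. They were found in 45 of 60 edited samples and in 2 of 20 controls, with 536 reads of 272286 against 2 of 70868. Both control reads came from the exon 7 acceptor, 1 each from controls 1 and 2, and the highest control had 0.0152% of reads. The median over edited samples was 0.120% and the highest was 0.548%. A control without such a read allows between 0.0528% (exon 9 donor, control 3) and 0.752% (exon 3 donor, control 2) of reads at its depth, as a count of 0 is read as up to 3 reads. Such limits and intervals account for counting error alone, as the amplicons carried no molecular identifiers and PCR copies of a molecule are counted separately. Tables held 399 to 18227 reads, and 384 of the 450 entries rested on a single read, with at most 5 reads for any entry.

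The insertion share, the percentage of reads of a sample that hold an insert, was 0.133 percentage points higher with an editor than without, as the mean of the differences at the 7 sgRNAs. This gave p = 1e-05 in a two-sided permutation test within sgRNAs, the smallest that 100000 resamples allow, and 2.33e-05 after Benjamini-Hochberg adjustment over the 7 planned comparisons. The mean difference was above 0 at all 7 sites and ran from 0.0198 points at the exon 3 acceptor to 0.309 points at the exon 7 donor. In 12 of the 20 edited groups every sample lay above every control of its site. Single groups cannot pass a threshold, as 3 samples against 3 allow no exact permutation p below 0.1, and the smallest adjusted p over the 20 groups was 0.25. p-values measure the spread between these samples, which the study describes as independent experiments.

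The exon 7 donor had the highest insertion shares. With *Sp*Cas-ABE8e they were 0.373%, 0.346% and 0.548% in replicates 1 to 3, a mean of 0.422 ± 0.110% (s.d., n = 3). With *Sp*G-ABE8e they were 0.361%, 0.402% and 0.412% (0.392 ± 0.0270%), and the samples of these 2 groups overlapped. *Sp*Cas-ABEmax gave 0.308%, 0.361% and 0.336% (0.335 ± 0.0264%) and *Sp*G-ABEmax 0.0461%, 0.0795% and 0.133% (0.0862 ± 0.0439%), the latter below every other edited sample of the site. Both controls, with 2048 and 4089 reads, had none.

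Among sites with *Sp*Cas editors exon 8 came next, with 0.286%, 0.512% and 0.234% for *Sp*Cas-ABE8e (0.344 ± 0.148%) and 0.267%, 0.241% and 0.272% for *Sp*Cas-ABEmax (0.260 ± 0.0168%). The higher mean of *Sp*Cas-ABE8e there came from replicate 2, and the groups overlapped. *Sp*G editors gave fewer insertion reads at this site, in total 8 with *Sp*G-ABE8e, of which 7 were in replicate 1, and 4 with *Sp*G-ABEmax, all in replicate 1. These means (0.105% and 0.0374%) therefore rest on 1 sample each. The exon 3 donor, tested with *Sp*G editors only, gave 0.120%, 0.249% and 0.223% with ABE8e (0.197 ± 0.0683%) and 0.212%, 0.222% and 0.146% with ABEmax (0.193 ± 0.0414%), with overlapping groups. These means lay above those of the same *Sp*G editors at exon 8.

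At exon 1 the *Sp*Cas editors gave shares of 0.248 ± 0.158% (ABE8e) and 0.195 ± 0.0505% (ABEmax). The *Sp*G editors gave 0.130 ± 0.121% (ABE8e) and 0.0417 ± 0.0361% (ABEmax). Of these reads 10 held bases of the exon 1 PCR primer, among them both reads of *Sp*G-ABEmax. Without them the *Sp*Cas shares were 0.195 ± 0.108% (ABE8e) and 0.139 ± 0.0470% (ABEmax), and the *Sp*G shares were 0.0769 ± 0.0754% (ABE8e) and 0 (ABEmax). Exon 1 tables were shallow, and the *Sp*Cas-ABEmax share of replicate 2 is 1 of 599 reads (0.167%, Wilson 95% interval 0.0295% to 0.940%). Exon 9, targeted by *Sp*G editors only, had 0.0758 ± 0.0510% (ABE8e) and 0.0136 ± 0.0235% (ABEmax). The 2 acceptors were lowest. At the exon 7 acceptor *Sp*G-ABE8e gave 0.0783%, 0.0717% and 0.0374% (0.0625 ± 0.0219%), above the controls. Of these reads, 1 each in replicates 2 and 3 had an insert at an end of the window and 14 deposited inserted bases, as had the read of control 2. *Sp*G-ABEmax gave none in 14253 reads, where the single samples allow up to 0.0423% to 0.116%. At the exon 3 acceptor both insertion reads came from replicate 1 of *Sp*G-ABE8e, and ABEmax gave none, where the single samples allow up to 0.132% to 0.179%. Editing also differed at the acceptors, as guanine at the targeted adenine on reads without an insertion or deletion. With *Sp*G-ABEmax it was 0.0423%, 0.580% and 0.262% at exon 7 and 2.42%, 1.98% and 2.21% at exon 3. With *Sp*G-ABE8e it was 17.9%, 15.2% and 10.8% at exon 7 and 36.1%, 34.7% and 37.9% at exon 3.

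The deaminase and the Cas9 variant both went with the number of insertion reads. The share was 0.0854 percentage points higher with ABE8e than with ABEmax at the same site and Cas9 variant (two-sided permutation test, labels permuted in each of 10 pairs, p = 0.00027, adjusted p = 0.000378). The mean was higher with ABE8e in 10 of 10 pairs, by 0.00415 points at the exon 3 donor to 0.305 points at the exon 7 donor with *Sp*G. At the 3 sites with both variants the share was 0.169 percentage points higher with *Sp*Cas than with *Sp*G (two-sided permutation test within site and deaminase, p = 4e-05, adjusted p = 7e-05), with a higher mean in 6 of 6 comparisons. The gain from ABE8e at the exon 7 donor was 0.0870 points with *Sp*Cas and 0.305 points with *Sp*G, but the difference of these gains was not detected (exact permutation test over 400 arrangements, two-sided p = 0.125, adjusted p = 0.375 over 3 sites). Over groups, the insertion share correlated with the level of editing at the targeted adenine (Pearson r = 0.629, Spearman 0.654). Whether the differences between editors go beyond this level was not tested.

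Deletion alleles, the most similar class of alleles, moved the other way with the deaminase. They made up 1292 reads of edited samples, so that insertion reads were 29.3% of all reads with an insertion or deletion there. The share of reads with a deletion and no insertion differed by −0.217 percentage points between ABE8e and ABEmax (two-sided permutation test, labels permuted in each pair, p = 0.00021), with a lower mean in 8 of 10 pairs. The exceptions, which had a higher mean with ABE8e, were *Sp*G at exon 1 and at the exon 7 acceptor. The insertion part of the reads with an insertion or deletion was accordingly 21.3 percentage points higher with ABE8e (p = 1e-05 in the same permutation test, the smallest possible). The mean was higher in 10 of 10 pairs. These 2 comparisons were added after the values had been seen.

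At the exon 7 donor the insertion part was 64.7%, 73.3% and 60% of such reads in the 3 *Sp*G-ABE8e samples and 10%, 10.7% and 20.7% in those with *Sp*G-ABEmax. With *Sp*Cas it was 53.5%, 42.0% and 67.1% for ABE8e and 25.3%, 28.6% and 24.3% for ABEmax. The ABE8e samples lay above the ABEmax samples without overlap for both Cas9 variants. At the exon 3 donor the values were 44.4%, 51.3% and 46.7% for *Sp*G-ABE8e against 19.6%, 30.4% and 19.6% for *Sp*G-ABEmax, again without overlap. Only 8 of 60 edited samples had more insertion than deletion reads.

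The inserts were short. Those that did not touch an end of the window had 1 to 18 bases with a median of 7, and each length from 1 to 10 bases held between 26 and 52 of 510 such inserts. The median was 6 bases at the exon 7 donor, 6.5 at the exon 3 donor, 9 at exon 8 and 4 at exon 1. The exon 1 value includes the reads with bases of the PCR primer, and the tandem repeats there had a median of 5.5. Single-base inserts made up 50 of the 510 reads. In 30 reads the insert touched an end of the window, so that its length there is a lower bound. The deposited number of inserted bases was larger than the number of gaps in 30 reads and reached 64.

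In the deposited alignment 63.0% of inserts were placed after base 10, the centre of the window, and none between bases 17 and 18. At the exon 7 donor 178 reads had the gap after base 10 and 36 after base 7, at exon 8 the gap was after base 10 in 101 reads, and at the exon 3 donor after base 4 in 32 and after base 10 in 30. A gap inside a repeat can be moved without changing the read, and allowing for this, 65 inserts could lie at the nick. Edited samples exceeded controls by 0.0159 percentage points in inserts that could lie at the nick (permutation p = 0.0221, adjusted p = 0.0253) and by 0.117 points in all others (permutation p = 1e-05, adjusted p = 2.33e-05). The first of these did not pass when either replicate 1 (permutation p = 0.0609) or replicate 3 (permutation p = 0.0801) was left out.

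Compared with the reference beside the gap, only 15.2% of inserts copied the adjacent bases exactly. The share rose to 19.4% when the insert was compared with the bases of the read itself. An edited copy does not equal an unedited one, and such a comparison misses it. Each read was therefore rebuilt without regard to the deposited gap, as a 5′ arm that follows the reference from the left end of the window and a 3′ arm that follows it to the right end, with A read as G allowed in either arm. Of 538 insertion reads, 498 had 1 insert inside the window and no deleted base, and in 420 of these (84.3%) the 2 arms accounted for every base, which makes the insert a tandem repeat of the bases they share. The other 78 reads held further bases that fitted neither arm, with a median of 2 bases and 1 base in 34 reads. With no mismatch allowed at all, repeats fell from 78.1% to 24.5% of all insertion reads.

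With repeats of any length counted, they were the most frequent form at every site. They were 219 of 263 insertion reads at the exon 7 donor, 102 of 131 at exon 8, 55 of 77 at the exon 3 donor, 22 of 36 at exon 1, 11 of 14 at the exon 7 acceptor, 9 of 15 at the exon 9 donor and both reads at the exon 3 acceptor. Among insertion reads of *Sp*Cas editors, repeats made up 81.1% (ABEmax) and 80.7% (ABE8e). Among those of *Sp*G editors they made up 66.7% (ABEmax) and 75.2% (ABE8e). Of the 420 repeats, 330 were at least 4 bases long, 39 had 1 base, and the longest had 18. Repeats of at least 4 bases were 167 at the exon 7 donor, 88 at exon 8 and 45 at the exon 3 donor. There were 17 at exon 1, 8 at the exon 9 donor, 5 at the exon 7 acceptor and 0 at the exon 3 acceptor. Short repeats, above all those of 1 base, cannot be told apart from an inserted base that happens to equal its neighbour. As A read as G was allowed, an inserted G next to an A can also count as such a repeat.

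The repeated segments ended on the PAM-distal side of the nick. In 397 of 420 repeats (94.5%) the segment ended at or before base 17 at every possible placement, and in 2 it had to end beyond it. In 59 repeats (14.0%) the end could lie exactly at base 17, so that the nick was a possible border of the segment in a minority of reads. At the exon 7 donor the repeats with a single possible place ended most often at base 12 (27 reads), followed by base 11 (11 reads) and base 17 (10 reads). Their first base was most often the targeted adenine at base 4 (16 reads), then base 8 (13 reads), base 7 (12 reads) and base 9 (11 reads). Repeats with several possible places are not in these counts. Among them, the first base could be 4 or 5 in 21 reads and 4 to 6 in 9 reads. It could be 6 or 7 in 17 reads, 7 or 8 in 18 and 7 to 9 in 21. The single-place counts therefore do not rank the first bases over all repeats. At all sites together, 143 of 420 repeats could begin at the targeted adenine or at the base after it. No count for other pairs of bases is set beside this.

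Most inserts were found in a single sample, and none dominated a sample. The 538 reads held 324 distinct events, counted by site, place and inserted bases. Of these, 225 rested on 1 read, 55 were found in at least 2 samples and 24 in 3 or more. Edited and unedited copies of a repeat count as different events here. Counted together, the repeats held 195 distinct segments, of which 52 were found in at least 2 samples. By mean share over the edited samples of a site, the leading event of exon 8 was a 7-base repeat, with 10 reads in 5 samples and at most 0.0480% of reads. Its first base could be any from 4 to 9, and placed after base 4 the insert is CCTGCGG. At the exon 7 donor it was the repeat of AGGC at bases 9 to 12 printed above, with 7 reads in 6 samples of 3 editors and at most 0.0343% of reads. It did not have the most reads, since a read with bases 3 to 12 repeated was counted 8 times in 2 samples. When edited and unedited copies were counted together, the most frequent repeat there was a single base, scored as A at base 7, 8 or 9. It had 16 reads in 9 samples, and the repeat of bases 3 to 12 had 10 reads in 3 samples. These 16 include 6 reads in 3 samples whose extra base is a G before AAA, scored as A with A7G. Such a read cannot be told apart from an inserted G. At exon 1 the leading event was a single G after base 18, with 4 reads in 3 samples and at most 0.106%. All 4 reads also held bases of the exon 1 PCR primer and a deletion. The highest share of any event in a sample, 0.167%, was a 9-base insert at exon 1 (CGTCCATGG) in the *Sp*Cas-ABEmax sample of 599 reads, where it is 1 read. The single G at exon 1 followed with 2 of 1880 reads (0.106%) in *Sp*Cas-ABE8e replicate 2, and then inserts of TCCA, GAT and A at exon 1, each 1 of 1185 reads (0.0844%) of the *Sp*Cas-ABEmax replicate 3. The reads with GAT and A also held bases of the PCR primer. Inserts of 20 bases, the most that a window showed, were seen in 19 reads, all of them at an end of the window. In the controls the 2 events were an extra C in a run of C at the exon 7 acceptor, in 1 of 6579 reads, and an insert at a window end.

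Reads with an insertion carried the targeted A-to-G change less often than other reads of the same sample. In the deposited alignment, the targeted adenine was read as guanine on 23.8% of insertion reads and on 67.9% of reads without an insertion or deletion, as means over the 29 edited samples with at least 5 insertion reads. The difference was −44.1 percentage points (two-sided sign-flip permutation test over 29 samples, p = 1e-05, adjusted p = 2.33e-05) and lay below 0 in 28 of 29 samples. In the *Sp*Cas-ABE8e samples of the exon 7 donor, 10 of 65, 8 of 27 and 4 of 45 insertion reads had guanine there, against 77.1%, 90.3% and 89.2% of reads without an insertion or deletion. With *Sp*Cas-ABEmax it was 0 of 15, 0 of 22 and 0 of 20, against 35.6%, 34.8% and 36.3%. With guanine counted in either copy of a repeat, the shares were 24.2%, 33.3% and 27.1% (*Sp*Cas-ABE8e) and 0%, 17.4% and 7.69% (*Sp*Cas-ABEmax). For *Sp*G-ABE8e at the exon 3 donor they were 62.5%, 60% and 76.9%, against 37.5%, 20% and 7.69% as aligned. Against deletion reads of the same sample that keep the targeted base, the difference was −15.9 points over 27 samples (sign-flip permutation p = 0.0253, adjusted p = 0.0253), with 18 of 27 below 0. This difference did not pass without replicate 2 (permutation p = 0.186) or replicate 3 (permutation p = 0.162). Deletion reads that lack the base were left out, after samples had been chosen by their number of all deletion reads. At the exon 7 donor with *Sp*Cas-ABEmax, 11 of 56, 13 of 65 and 18 of 84 deletion reads remained. At the exon 3 donor with *Sp*G-ABE8e replicate 1, only 2 remained. When guanine was counted in either copy of a repeat, the first difference was −22.8 points (permutation p = 4e-05) and the second turned to 5.73 points (permutation p = 0.441).

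Within repeats, the low value was found in the 5′ arm. Repeats that include the targeted adenine hold it in both copies, and the copies differed. Of the 87 repeat reads of edited samples that show it in both arms, 62 had adenine in the 5′ copy and guanine in the 3′ copy, 18 had guanine in both, 7 had adenine in both and 0 had guanine in the 5′ copy alone. Over the 13 samples with at least 3 such reads, guanine was 67.4 percentage points more frequent in the 3′ copy (two-sided sign-flip permutation test over 13 samples, p = 0.00021), with 13 of 13 samples above 0. These samples, with 3 to 9 such reads each, came from the exon 3 donor with *Sp*G editors and from the exon 7 donor and exon 8 with *Sp*Cas editors. The other sites and groups are not covered by the test.

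Adenine followed by guanine was the most frequent order at each site with such reads, some of which had few. At the exon 3 donor 24 of 26 such reads had adenine followed by guanine and 2 had guanine in both. At exon 8 the counts were 16 and 10 of 26, and at the exon 7 acceptor 5 of 5 and at exon 1 3 of 3 had adenine followed by guanine. The exon 7 donor differed in that 7 of 27 reads had adenine in both copies, next to 14 with guanine in the 3′ copy only and 6 with guanine in both. With *Sp*G editors, adenine followed by guanine made up 29 of 31 reads (ABE8e) and 6 of 10 reads (ABEmax). With *Sp*Cas editors it made up 14 of 25 (ABE8e) and 13 of 21 (ABEmax). Whether these shares differ between sites or editors was not tested.

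A second adenine gave the same order. A7G lies 3 bases from the target at the exon 7 donor and was found in 16.0% to 87.3% of reads without an insertion or deletion in the edited samples of this site. On repeat reads it was found in 19 of 199 5′ arms (9.55%) and 113 of 136 3′ arms (83.1%). In the reads that show base 7 in both arms, *Sp*Cas-ABE8e had guanine in 0 of 30, 0 of 6 and 1 of 31 5′ copies and in 29, 5 and 31 of the corresponding 3′ copies. *Sp*Cas-ABEmax had it in 1 of 9, 1 of 9 and 2 of 15 5′ copies and in 8, 4 and 9 of the 3′ copies. Replicates 1 and 2 of *Sp*G-ABE8e had it in 1 of 7 and 0 of 5 5′ copies and in 7 and 4 of the 3′ copies. The difference was 75.0 percentage points over 8 samples, with 8 of 8 above 0 (two-sided exact sign-flip permutation test, p = 0.00781, the smallest possible), and with 5 samples left, without replicate 1 or 2, the smallest possible p of 0.0625 was reached. The neighbouring A8G and A9G were rare in both arms of repeat reads, with 4 of 167 and 2 of 154 in the 5′ arm and 9 of 172 and 8 of 206 in the 3′ arm.

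Set against reads without an insertion or deletion, the mean differences of the 2 arms had opposite signs. For guanine at the target, the 5′ arm of repeat reads differed by −46.3 percentage points (two-sided sign-flip permutation test over 28 samples, p = 1e-05) and was lower in 27 of 28 samples. In the 3′ arm it was 15.1 points more frequent (permutation test over 19 samples, p = 0.0144), with 15 of 19 samples above 0, and this did not pass without replicate 2 (12.3 points, permutation p = 0.120). Of the 4 samples below 0, 3 were among the 5 samples of the exon 7 donor, at −35.6 and −18.1 points (*Sp*Cas-ABEmax replicates 1 and 3) and −11.4 points (*Sp*Cas-ABE8e replicate 3), and the other was at the exon 3 donor (−7.25 points). Pooled over edited samples, the 5′ arm had guanine in 78 of 355 reads (22.0%) and the 3′ arm in 126 of 148 (85.1%). At exon 8 the 3′ arm had guanine in 50 of 50 reads and the 5′ arm in 34 of 75. At the exon 3 donor the counts were 36 of 37 and 4 of 44. The exon 7 donor had 26 of 46 in the 3′ arm and 33 of 200 in the 5′ arm. The comparisons of arms were added after the reads had been seen, and over all 13 comparisons the largest adjusted p was 0.0253.

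Not all insertion reads were repeats. At exon 1, 10 of 36 insertion reads also had deleted bases and held at least 12 bases of the exon 1 PCR primer that the window does not hold. No control had such a read. Without these reads the difference between edited samples and controls over all sites was 0.126 percentage points (permutation p = 1e-05). For the exon 7 donor, the table of replicate 1 with *Sp*Cas-ABE8e, whose values carry fewer decimals than the others and which holds the most reads, had 68 insertion reads, and without it the same difference was 0.132 points (permutation p = 1e-05).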

How the data were processed

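Genomic DNA of Hepa1-6 cells was amplified around each *Ptbp1* splice site by PCR in 2 steps and sequenced as paired ends on a MiSeq. The authors aligned the reads to the amplicon with CRISPResso2, whose version and parameters are not given in the sources used here, and deposited 1 table per sample with the read count of each allele in a window of 40 alignment columns. The deposited percent of reads is the count divided by the total of its table, and the shares here were computed from the counts. Columns with the number of deleted, inserted and substituted bases cover the whole amplicon and were used for the inserted bases outside the window. Tables held 399 to 18227 reads, and an allele of 1 read cannot be told apart from a PCR or sequencing error.

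Samples were grouped by the sgRNA, Cas9 variant and deaminase in their labels. Titles name ABEmax at 4 sites and only ABE at the other 3 (exon 1 and both acceptors). The latter were taken as ABEmax because the descriptions write ABE at all 7 sites, also for samples titled ABEmax. Members and lists were chosen with earlier results of these data known. Each read was placed on the reference window after gaps were dropped, since gaps push reference bases out of the 40 columns, and windows were matched to GRCm39 (GENCODE M39 annotation). An insertion was counted as possible at the nick when an equivalent placement lies between bases 17 and 18. Repeats were rebuilt from reads with 1 insert, no deleted base and no insert at a window end, with A-to-G as the only mismatch. Named events were, per site, the one with the highest mean share if found in at least 2 samples, the 5 highest in a single sample, the highest in controls and the longest. Shares were compared with two-sided permutation tests of 100000 resamples within sgRNA or pair of groups, exact tests for single groups, and sign-flip tests over samples with at least 5 insertion reads, or at least 3 reads for comparisons of arms. Benjamini-Hochberg adjustment covered 7 planned comparisons, or 13 with those added after the data were seen. Python 3.11.15, numpy 2.4.6 and scipy 1.17.1 were used, and the scripts were tested on simulated data. Alternatives covered read minimums, placement of the gap, single replicates, the replicate block, the table with fewer decimals and the mismatches allowed.

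Of 79 pairs of replicates 0 had identical counts and 41 did not differ by a chi-square test of alleles (p above 0.05), which in 18 groups stood beside a pair that did. Because so many pairs behaved so, all samples were kept as replicates, with merged pairs as an alternative.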

Additional observations from a re-analysis of the deposited data

How the results depend on the processing

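Of 146 alternatives, 123 kept the main result. For tests this means the same direction and side of the threshold, and for values without a p-value a set closeness to the main value. No insertion allele reached 0.2% of the reads of a sample, so that this minimum set all 5 differences in insertion share to 0, and the 2 comparisons of A-to-G changes could not be run with it. With alleles of at least 2 reads only, 6 groups lay above every control in place of 12, and the difference at the nick was 0.00284 percentage points (permutation p = 0.416). The latter was 0 with the gap as deposited or with the protospacer taken as bases 11 to 30 of each entry. Against deletion reads, the target A-to-G difference was −17.8 points with alleles of at least 2 reads (exact permutation p = 0.0625), −3.30 with bases 11 to 30 of each entry (permutation p = 0.596), −27.6 with at least 20 insertion reads (exact permutation p = 0.0625) and 5.73 with guanine in either copy (permutation p = 0.441), an alternative chosen after seeing the data. The share of inserts that copy their neighbours was 19.4% against the read itself, and repeats were 24.5% of insertion reads with no mismatch and 82.2% with 1 other mismatch, both also chosen after seeing the data. Leaving out each replicate in turn gave 0.0126 to 0.0177 points at the nick, −25.2 to −10.8 against deletion reads, 12.3 to 19.0 for the 3′ arm against reads without an insertion or deletion, and 68.0 to 80.7 for A7G between arms. The cause of these changes was not tested. In alternatives chosen after seeing the data, the 4 sites titled ABEmax gave 0.102 points for ABE8e against ABEmax (permutation p = 0.00251), and leaving out the primer reads of exon 1 gave 0.0845 points (permutation p = 6e-05). With the replicate number as a block no call changed (permutation p = 0.00024 for ABE8e against ABEmax, 0.00026 for *Sp*Cas against *Sp*G and 0.0225 at the nick). Same-numbered samples of ABE8e and ABEmax deviated together with r = 0.179 over 30 pairs, and the labels do not say that numbers mark a shared batch. With agreeing replicates merged, the differences in share were 0.133 (edited against control), 0.0809 (ABE8e) and 0.170 points (*Sp*Cas). Depth limits shallow tables most, since 3 reads are 0.752% of the smallest.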

Other observations

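Some alleles have a deposited number of inserted bases above 0 but no gap in the window, which places the insert elsewhere in the amplicon. There were 44 such reads in 23 edited samples and 3 in 2 controls. Within sgRNAs their share exceeded that of the controls by 0.0122 percentage points, which did not pass the threshold (two-sided permutation test over 80 samples, p = 0.0609).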
